A study of Mus musculus with 12 samples.

Results

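Cells at day 14 of a cardiac differentiation of mouse embryonic stem cells were compared with cells at day 9 of the same differentiation. The comparison takes the 4 arrays labelled day 14 and the 4 labelled day 9, which are 8 of the 12 arrays of the study; the other 4, of undifferentiated mouse embryonic stem cells (mESC), are given beside them as a level to read against. The study asked how the cells change as they become heart muscle cells without added cardiac factors. All groups carry the same growth description: seeding on dishes coated with crosslinked ELP (elastin-like polypeptide, a polymer modelled on elastin), 2 days in stem cell medium lacking LIF, a cytokine that maintains pluripotency, and 12 days in GMEM with 2.5% knockout serum replacement. The last step of this text alone is longer than 9 days, so it does not give the culture time of the day 9 samples. The labels repeat this text for the mESC samples too, call the cell type of every sample embryonic stem cells, and name no cell line and no step that would enrich heart cells. Nothing in them ties the 4 replicates of a day to different dishes; the p-values thus reflect how these samples spread, and that spread may be technical. Total RNA, 500 ng a sample, was turned into cRNA carrying Cy3 and hybridised to 1-colour arrays. Each group lay on 1 slide with a scan of its own, so slide and day cannot be told apart in any value below. The RNA is from whole dishes, in which fewer cells of a type and less RNA per cell cannot be told apart.

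Heart muscle cells mature by exchanging protein isoforms. Fetal cells use slow skeletal troponin I, atrial myosin light chain and embryonic M-band proteins, and later cells replace them with cardiac troponin I, ventricular light chain and myomesin 2, while the sarcoplasmic reticulum, the calcium store of the cell, gains its buffer and its pump regulators. Pacing channels and progenitor transcription factors decline in the working muscle, and oxidative and fatty acid handling isoforms increase. A ratio between 2 isoforms of the muscle cell itself follows this exchange with less weight on how many muscle cells a dish holds, unless other cells make one of the pair.

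Levels are log2 of the processed signal minus the array's 75th percentile, so 0 is a signal at that percentile; since probes differ in brightness, levels are compared between days and not between genes. The 75th percentile was a signal of 395.1 to 438.4 on the day 9 arrays and 463.4 to 507.7 on the day 14 arrays, and between 62.1% and 68.7% of probes exceeded background clearly. Arrays of the same day correlated at 0.98931 to 0.99685 and arrays of different days at 0.94635 to 0.95339 across genes, which are not independent replicates. The words rose and fell are kept for genes with an adjusted p under 0.05 in limma and a log2 change of 1 or more; changes are given with their SE and n = 4 arrays a day. Of 20134 genes tested, 2073 rose and 727 fell, which is 10.3% and 3.61% of them, and 13.9% in either direction. Of those called, 74.0% were higher on day 14. This split depends on the scaling: with each array scaled to its median, 59.4% were higher. The median of all genes was −0.09, and −0.28 with median scaling, and list medians below are read against it. At least 8-fold changes were 432 upward and 25 downward. Where no array of one day was well above background, a lower limit of the fold, worded "at least", is printed against the dimmest signal well above background. A change is not a bound where only some arrays of the low day were above background, and its size is then uncertain. Of genes described below this holds on day 9 for Ckm, Ctss and Fap (1 of 4 arrays above), for Gpnmb, Ifi44, Lyve1, Mmrn1 and Myh3 (2 of 4) and for Cmya5, Ctsk, Dll4, Pln and Sema3d (3 of 4). On day 14 it holds for Kcnmb1 (1 of 4), Hbb-bh1 and Trim55 (2 of 4) and Etv2 (3 of 4). In all, 466 of the genes that rose were below background throughout day 9, and 67 of those that fell were so throughout day 14.

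In the 9 lists of heart muscle genes, 30 of 174 tested members rose and 21 fell, with a median of 0.05. In the 22 lists of other cell types, 168 of 417 rose and 48 fell, with a median of 0.55. As shares, 17.2% of heart genes and 40.3% of the other cell types' genes rose, against 10.3% of all genes. The shares that fell were 12.1% and 11.5%, against 3.61%. Genes below background throughout day 9 were tested only because of day 14 and could hardly have fallen, which lifts the shares that rose. Over all genes they were 466 of the 2073 that rose. Tested were 174 of 187 listed heart genes and 417 of 505 listed genes of the other cell types. More members rose than fell in the lists of channels, calcium cycling, energy isoforms and thick filament. More fell than rose in those of transcription factors, thin filament, Z disc and pacemaker genes, and in the hormone list 1 rose and 1 fell.

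**Figure D1:**
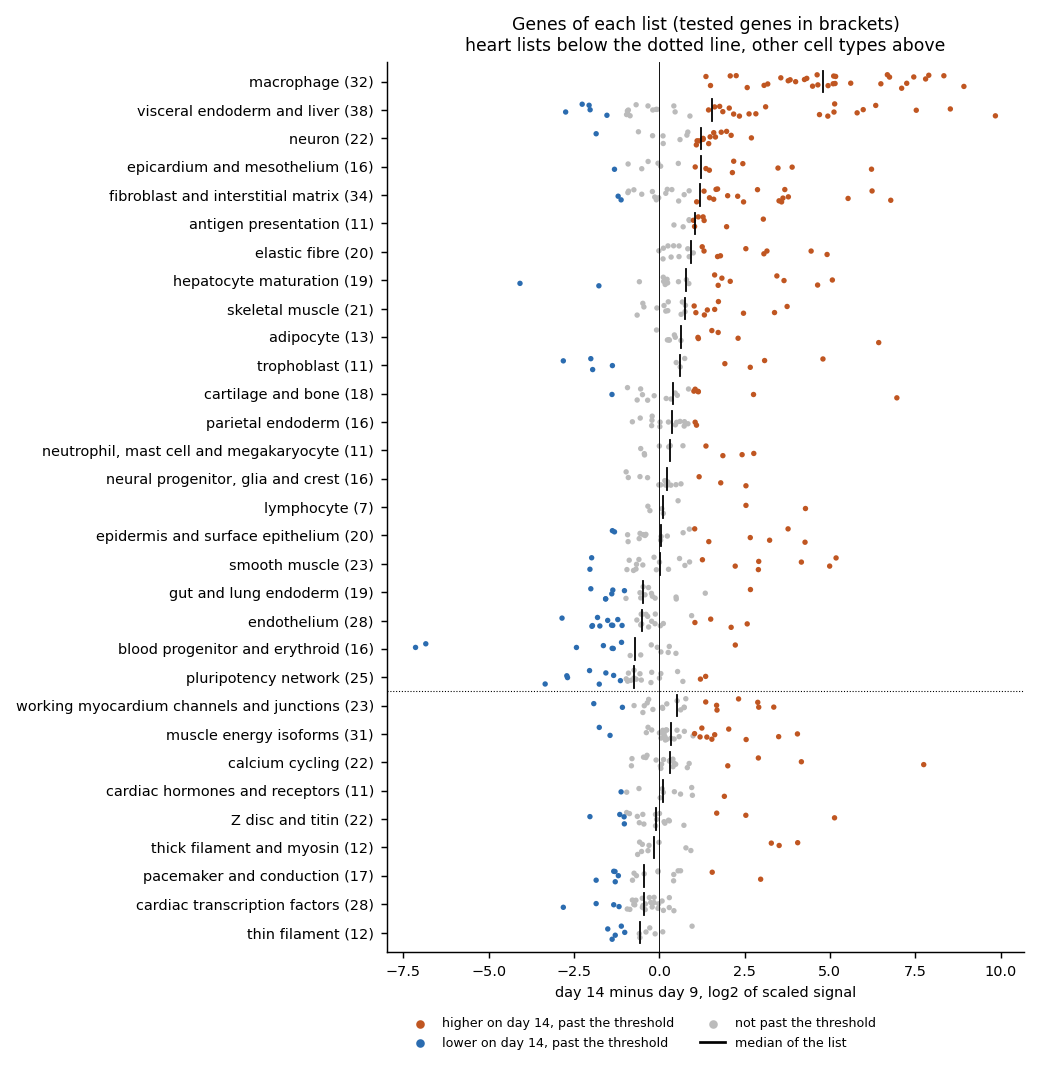
Change of every tested gene from day 9 to day 14 on the log2 scale, 1 row per list, with tested genes in brackets; each point is a gene, orange where it rose and blue where it fell past the threshold, and the black bar is the list's median. All 32 macrophage genes lie right of 1, while the medians of the 9 heart lists below the dotted line run from −0.58 to 0.52.

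The heart muscle signal as a whole did not rise between the days. Troponin T (Tnnt2), which fixes troponin to the thin filament, stood at 4.69, 5.76, 5.67 and 5.23 on the 4 day 9 arrays and at 4.57, 4.86, 4.60 and 5.05 on the 4 day 14 arrays, against −1.45 to −1.25 in mESC. Alpha myosin heavy chain (Myh6), the fast motor of the heart, stood at 3.73, 5.36, 5.12 and 4.07 and then at 4.32, 4.75, 4.45 and 4.74. The day 14 arrays lie inside the day 9 range for Myh6 and reach below it for Tnnt2, and neither gene was called (Myh6 −0.01 ± 0.36, Tnnt2 −0.57 ± 0.24). The mean of a reference list of 12 core heart genes differed by 0.02 between the days. Without Casq2, a member that rose, the mean of the other 11 was 2.16, 3.63, 3.43 and 2.72 on day 9 and 2.32, 2.74, 2.51 and 2.91 on day 14, against −2.70 ± 0.12 (SD, n = 4) in mESC. The day 14 mean of these 11 was lower by 0.36 on the log2 scale, less than the SD of 0.68 between the day 9 arrays. Casq2 was the 1 member of the 12 that rose, while Actc1, the 1 that fell, was kept. Leaving Casq2 out thus lowers the change by construction, and the value of 0.36 is a description only. The other 11 genes were well above background on all 8 arrays, so both days hold heart muscle transcripts.

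Replicates 1 and 4 of day 9 stood apart. Of 156 heart genes above background on all day 9 arrays, 111 (71.2%) were lower on both of these arrays than on both others, against 23.4% of all genes. The fibroblast list ran the other way, with means of 1.37 and 1.19 on these 2 arrays and 0.69 and 0.90 on replicates 2 and 3. The median SD of heart genes was 0.37 on day 9 and 0.17 on day 14, against 0.139 and 0.0851 over all genes. Without the 2 arrays 37 heart genes fell in place of 21, and over all genes 931 in place of 727. Since these arrays were picked as the lowest in heart genes, leaving them out raises the day 9 level of those genes by construction, and the count is a description only. Among the added ones were the giant spring protein titin (Ttn, −0.95 ± 0.44 with all arrays and −1.76 without them), the calcium buffer Hrc (−0.82 and −1.41), the sodium-calcium exchanger Slc8a1 (−0.80 and −1.27) and the cofactor myocardin (Myocd, −0.94 and −1.46). Of these 4 genes, Ttn, Hrc, Slc8a1 and Myocd, each was also called without replicate 1 alone, at −1.29, −1.15, −1.06 and −1.24. Replicate 1 was the lowest day 9 array for 115 of the 156 heart genes. Leaving it out thus also raises their day 9 level by construction, and these values are a description only.

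**Figure D2:**
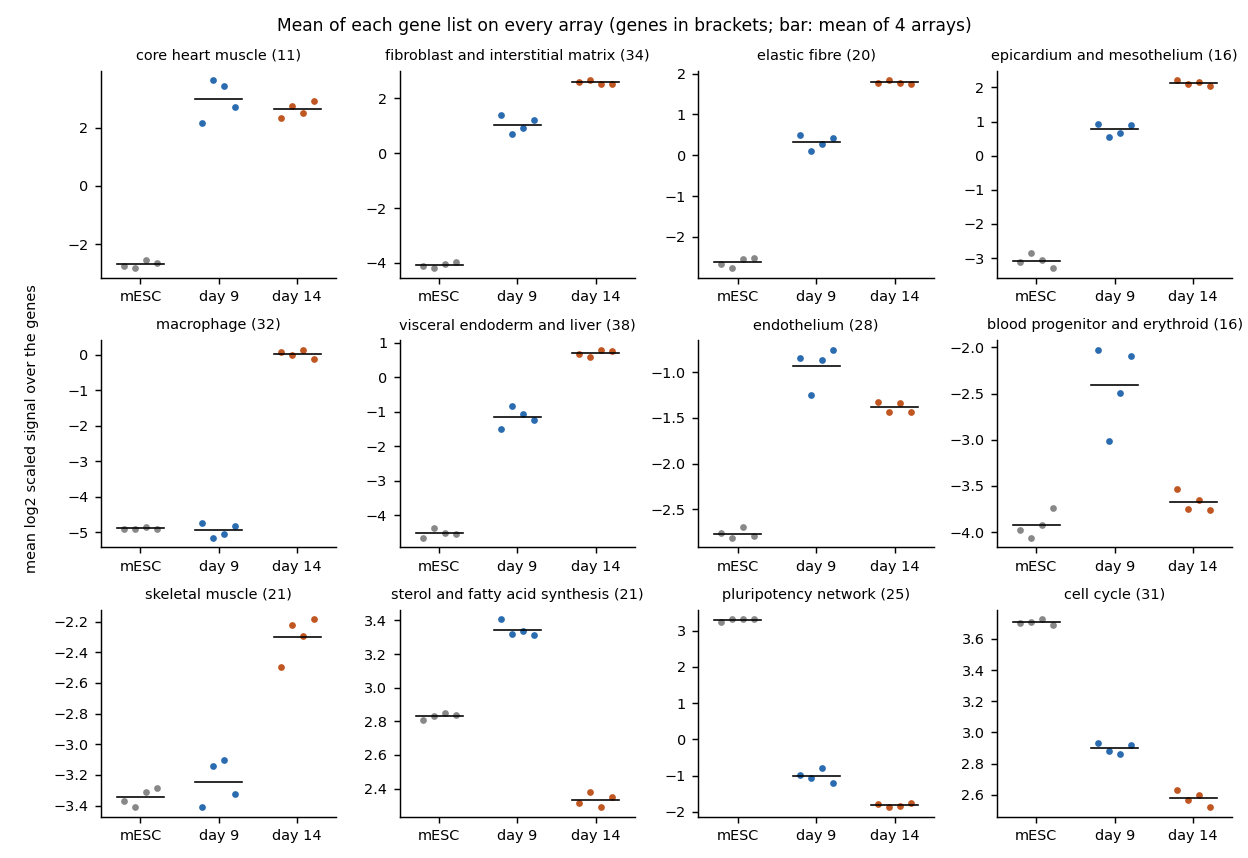
Mean log2 scaled signal of 12 gene lists on each of the 12 arrays (points; black bars are means of 4 arrays), by group, with the number of genes in brackets. Core heart muscle, shown without Casq2, overlaps between day 9 and day 14. Macrophage, liver, fibroblast and elastic fibre means are higher and erythroid and sterol means lower on every day 14 array than on every day 9 array.

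Most isoform ratios differed between the days, while the core heart mean overlapped. The 21 pairs were chosen with earlier results of these data known. Of them 19 could be tested, and in 14 the 4 day 14 arrays lay entirely on one side of the 4 day 9 arrays. For each of these the two-sided exact permutation test gave p = 0.0286, the smallest this design allows, and adjusted p = 0.0388 over the 19. For ratios, rose and fell mean an adjusted p under 0.05 in this test, with no fold threshold. Lack of overlap was common in these data. Over all single genes, 59.1% did not overlap between the days, 23.8% with day 14 above and 35.2% with day 14 below. Cardiac over slow skeletal troponin I (Tnni3 over Tnni1), the standard index of heart muscle maturity, rose by 2.25 ± 0.10 on the log2 scale, or 4.76-fold. Relative to the day 9 mean of the ratio, its values were −0.22, 0.26, −0.01 and −0.03 on day 9 and 2.17, 2.26, 2.32 and 2.26 on day 14. The spread of this ratio between day 9 arrays is far below that of its parts: Tnni3 alone stood at 1.21, 2.66, 2.31 and 1.91 on day 9 and at 2.67, 3.05, 2.91 and 3.31 on day 14. Tnni1 stood at 3.72, 4.69, 4.61 and 4.24 and then at 2.79, 3.08, 2.88 and 3.34. Tnni1 fell (−1.29 ± 0.22, adjusted p = 0.00134), and Tnni3 at 0.96 ± 0.30 did not reach the fold threshold, which it did without day 9 replicate 2 (1.17), day 9 replicate 3 (1.06) or day 14 replicate 1 (1.07).

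The M-band, which crosslinks myosin filaments, showed the widest shift. Myomesin 2 over myomesin 1 (Myom2 over Myom1) rose by 4.03 ± 0.24. Myom2 rose by 3.51 ± 0.20 (adjusted p = 2.8e-06), from −2.72, −2.02, −2.28 and −2.39 to 0.84, 1.23, 0.97 and 1.60, and Myom1 was not called at −0.52 ± 0.32. Undifferentiated mESC were higher than both days for Myom2, at 1.61 to 1.72, so this gene is no marker of heart muscle in these samples.

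Other ratios were also higher on day 14. Ventricular over atrial regulatory light chain (Myl2 over Myl7) rose by 1.08 ± 0.15, and alpha over beta myosin heavy chain (Myh6 over Myh7) by 0.57 ± 0.16. Connexin 43 over connexin 45 (Gja1 over Gjc1), the gap junctions of working and of embryonic or pacing muscle, rose by 1.30 ± 0.08. The muscle subunits of cytochrome oxidase rose against their general forms: Cox8b over Cox8a by 3.33 ± 0.30, Cox6a2 over Cox6a1 by 1.50 ± 0.36 and Cox7a1 over Cox7a2 by 0.64 ± 0.23. Smaller rises were those of the insulin-responsive over the basal glucose transporter (Slc2a4 over Slc2a1, 0.52 ± 0.11), the L-type over a T-type calcium channel (Cacna1c over Cacna1h, 0.47 ± 0.06) and ventricular over atrial essential light chain (Myl3 over Myl4, 0.30 ± 0.04).

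In 3 pairs the heart or muscle form lost ground. Cardiac over slow skeletal troponin T (Tnnt2 over Tnnt1) fell by 2.30 on the log2 scale, muscle over liver carnitine palmitoyltransferase (Cpt1b over Cpt1a) fell by 1.86, and muscle over general enolase (Eno3 over Eno1) fell by 0.47. Between day 9 arrays the Tnnt2 over Tnnt1 ratio also spread far less (SD 0.11) than Tnnt2 (0.49) or Tnnt1 (0.43) alone. Tnnt1 rose by 1.73 ± 0.21 and Cpt1a by 1.48 ± 0.12, in samples in which skeletal muscle and liver genes rose. Cells outside striated muscle make one or both members of the connexin, cytochrome oxidase, glucose transporter, calcium channel, carnitine palmitoyltransferase and enolase pairs. Skeletal muscle makes members of the troponin and myosin pairs. The part of other cells in any of these ratios, higher or lower, was not tested. The pairs that overlapped between the days were Actc1 over Acta1 (0.10), Ldhb over Ldha (0.02), Pgam2 over Pgam1 (−0.16), Actc1 over Acta2 (−0.07) and Tpm1 over Tpm2 (−0.58).

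**Figure D3:**
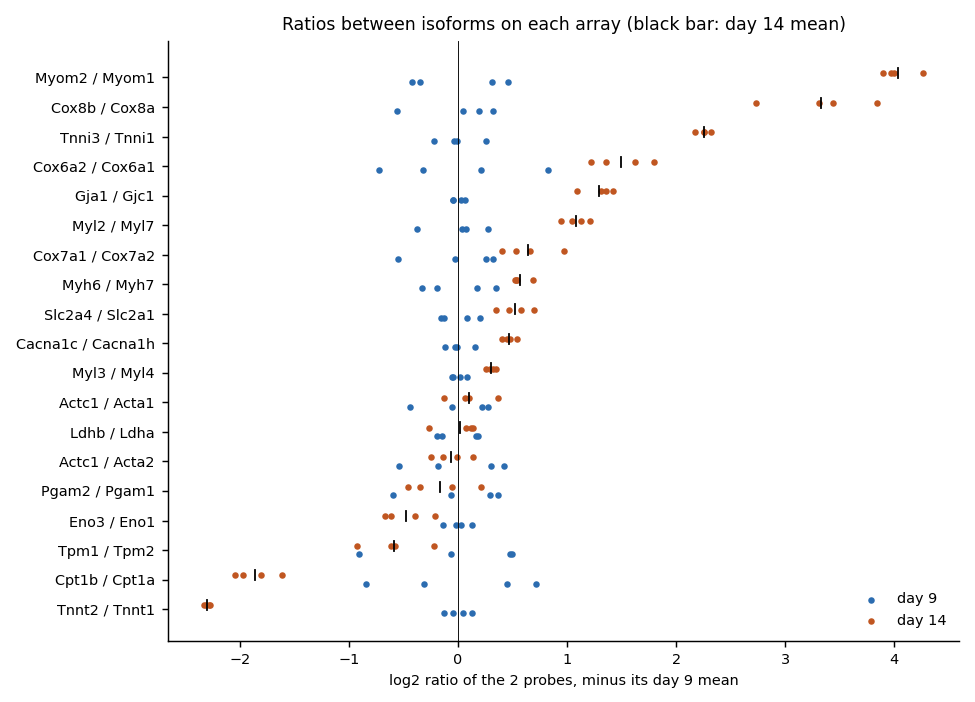
Log2 ratio of the probes of 19 isoform pairs on each array, minus the day 9 mean of that ratio; blue points are the 4 day 9 arrays, orange points the 4 day 14 arrays, and black bars day 14 means. Ratios from Myom2 over Myom1 (4.03) down to Myl3 over Myl4 (0.30) lie fully right of day 9, and those of Cpt1b, Tnnt2 and Eno3 fully left.

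The contractile lists split. In the thick filament list 3 of 12 tested genes rose and none fell, among them Myom2 and Mybpc2, a myosin binding protein of fast skeletal muscle that was at least 4.38-fold higher. Mybpc2 was below background on every day 9 array and stood at −3.74 to −3.50 on day 14, below its −0.27 to −0.12 in mESC. In the thin filament list none of 12 rose and 5 fell: nebulette (Nebl, −1.51 ± 0.31), which links actin to the Z disc, the filament cap tropomodulin 1 (Tmod1, −1.38 ± 0.16), Tnni1, skeletal actin (Acta1, −1.11 ± 0.08) and cardiac actin (Actc1, −1.01 ± 0.21). Actc1 stood at 4.85, 5.79, 5.64 and 5.16 on day 9 and at 4.13, 4.44, 4.23 and 4.60 on day 14, with every day 14 array lower. Its change sits at the fold threshold, and it was not called without day 9 replicate 2 (−0.87) or 3 (−0.92), or without day 14 replicate 1 (−0.94) or 3 (−0.97).

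Of 22 Z disc and titin genes 3 rose and 4 fell. Myozenin 2 (Myoz2), which tethers the phosphatase calcineurin at the Z disc of heart and slow muscle, was at least 24.8-fold higher. It stood at −7.39, −5.99, −5.83 and −5.55 on day 9, none above background, and at −1.50, −0.92, −1.28 and −0.52 on day 14. The actin-binding protein Xirp2 was at least 2.90-fold higher, from below background on day 9, and stood higher still in mESC, at −2.92 to −2.69. The LIM protein Fhl2 rose by 1.68 ± 0.08. Synaptopodin 2 (Synpo2) fell by 2.03 on the log2 scale, Pdlim5 by 1.03, and the sarcomeric ubiquitin ligases Trim55 and Trim54 by 1.16 and 1.02; Synpo2 moved by only −0.47 on another probe. The calls of the last 3 are fragile: Trim55 was lost without day 14 replicate 2 (−0.98), Pdlim5 without day 9 replicate 2 (−0.97), and Trim54 without day 9 replicate 2 (−0.76) or 3 (−0.89), or without day 14 replicate 1 (−0.97), 2 (−1.03) or 3 (−0.97).

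Promoters are shown for 2 contractile genes that fell and 2 that rose, because each carries a sequence known from muscle promoters; they were chosen after the values were seen. The lines give the 200 bases before the RefSeq start, 5′ to 3′ on the gene's strand, build GRCm38.p6, with the motif in capitals. It is a CArG box, the site of serum response factor, in Actc1 (chr2:114052876-114053075, minus strand, bases −47 to −38) and Nebl (chr2:17462857-17463056, minus strand, bases −162 to −153, 1 of 4 starts). It is a MEF2 site in Myoz2 (chr3:123034988-123035187, minus strand, bases −33 to −24) and Xirp2 (chr2:67445802-67446001, plus strand, bases −74 to −65).
Actc1: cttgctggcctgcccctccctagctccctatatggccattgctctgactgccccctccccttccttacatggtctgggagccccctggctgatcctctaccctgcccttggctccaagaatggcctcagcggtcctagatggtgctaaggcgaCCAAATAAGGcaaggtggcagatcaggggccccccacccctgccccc
Nebl: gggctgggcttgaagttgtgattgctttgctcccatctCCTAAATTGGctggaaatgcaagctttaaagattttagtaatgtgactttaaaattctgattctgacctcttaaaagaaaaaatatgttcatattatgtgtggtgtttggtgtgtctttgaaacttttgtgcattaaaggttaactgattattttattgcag
Myoz2: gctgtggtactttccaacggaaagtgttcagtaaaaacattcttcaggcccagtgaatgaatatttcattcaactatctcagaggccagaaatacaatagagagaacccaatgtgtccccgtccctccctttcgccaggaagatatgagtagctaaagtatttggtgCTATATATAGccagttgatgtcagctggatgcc
Xirp2: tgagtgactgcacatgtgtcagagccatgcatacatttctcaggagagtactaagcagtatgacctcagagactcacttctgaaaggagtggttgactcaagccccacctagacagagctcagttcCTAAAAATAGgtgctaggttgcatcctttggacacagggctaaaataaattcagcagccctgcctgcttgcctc

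Over all 32851 promoters of the table, 1.18% held a CArG box in these 200 bases on either strand and 0.414% a MEF2 site. No stretch can be both, since a CArG box begins with CC and a MEF2 site with CT. Of the 46 tested thick filament, thin filament and Z disc genes, 38 had a promoter in the table. CArG boxes were found in 8 of them (Acta1, Actc1, Fhl2, Ldb3, Myl3, Myl7, Myom1 and Nebl), of which Acta1, Actc1 and Nebl fell and Fhl2 rose. MEF2 sites were found in 5 (Mybpc3, Myoz2, Synpo2l, Ttn and Xirp2), of which Myoz2 and Xirp2 rose and none fell. The MCAT element CATTCCT was in 8 of the 38 against 3.55% of all promoters, among genes that rose (Mybpc2), fell (Acta1, Trim54) and did neither. The sequence TATAAA, which a MEF2 site can contain, was in 5 of the 38 against 9.96% of all promoters. A listed gene was counted if any of its starts matched, while the shares over all promoters count every start separately. Genes with several starts are thus favoured in the list counts. The matches are letters in a window.

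Of 22 tested calcium cycling genes 4 rose and none fell, and all 4 belong to the sarcoplasmic reticulum. Sarcolipin (Sln), a peptide that restrains the calcium pump in atrial muscle, was at least 68.7-fold higher: it stood at −8.08 to −6.32 on day 9, at the level of mESC (−7.62 to −6.87), and at 0.09, 0.38, 0.17 and 0.78 on day 14. Calsequestrin 2 (Casq2), the calcium buffer of the cardiac reticulum, was at least 14.4-fold higher, from −6.40 to −5.81 with no array above background to −2.07, −1.94, −1.91 and −1.66. Phospholamban (Pln), the pump's adrenergic brake, rose by 2.90 ± 0.39 (adjusted p = 0.000332), and triadin (Trdn), which anchors calsequestrin to the release channel, rose by 2.01 ± 0.32. The release channel itself (Ryr2, −0.46 ± 0.30) and the pump (Atp2a2, 0.31) were not called. Casq2 and Pln are also made by smooth muscle, whose list held 7 genes that rose. Skeletal muscle genes rose as well. The part of smooth or skeletal muscle in the rise of these 4 genes was not tested.

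**Figure D4:**
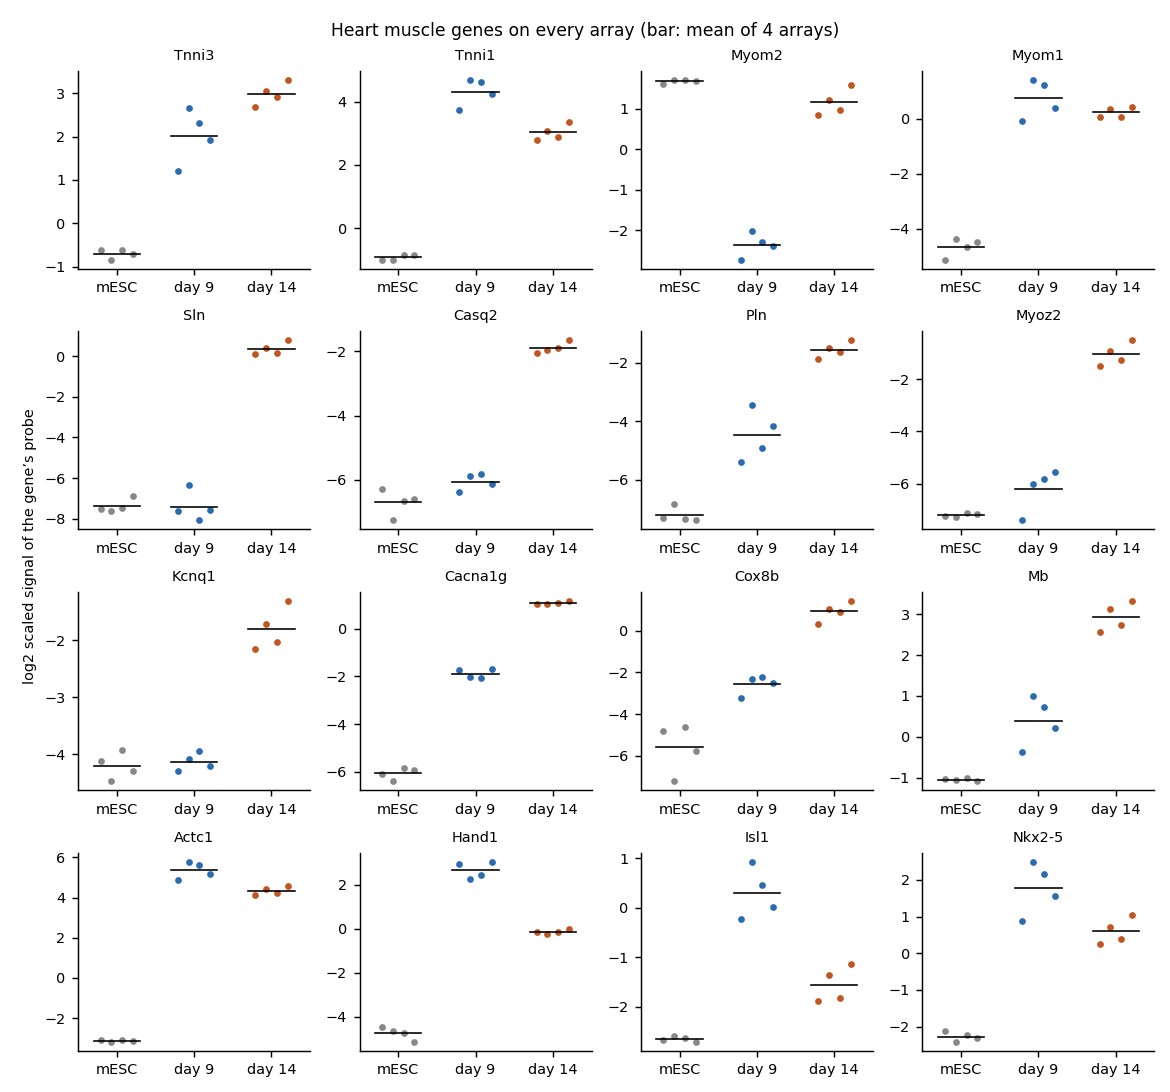
Log2 scaled signal of 16 heart muscle genes on each of the 12 arrays (points; black bars are means of 4 arrays), by group, each panel on its own axis. Sln and Casq2 leave the mESC level only on day 14, Tnni1 falls while Tnni3 does not, Myom2 is highest in mESC, and Hand1, Isl1 and Nkx2-5 are lower on day 14 than on day 9.

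Ion channels and junctions of working muscle moved upward more often than downward, 7 of 23 against 2. The potassium channel Kcna4 was at least 4.71-fold higher. Abcc9, the regulatory subunit of the ATP-sensitive potassium channel, rose by 2.91 ± 0.16, the repolarising channel Kcnq1 by 2.32 ± 0.18 and the transient outward channel Kcnd2 by 1.68 ± 0.13. Abcc9 is also in the smooth muscle list, in which the channel Kcnj8 rose by 5.18 ± 0.09. The part of smooth muscle in the rise of Abcc9 was not tested. Kcnq1 stood at −4.29, −4.08, −3.95 and −4.20 on day 9 and at −2.16, −1.72, −2.03 and −1.31 on day 14, with every day 14 array higher. Desmoplakin (Dsp) and plakophilin 2 (Pkp2), which build desmosomes in heart and epithelia, fell by 1.92 and 1.08 on the log2 scale. Dsp stood at 3.05 to 3.39 on day 9 and at 1.06 to 1.44 on day 14.

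Pacemaker and conduction genes moved both ways, with 2 of 17 rising and 5 falling. The T-type calcium channel Cacna1g rose by 2.97 ± 0.09, from −2.07 to −1.70 up to 1.04 to 1.17, and connexin 40 (Gja5), the gap junction of atria and conduction fibres, by 1.55 ± 0.19. The genes that fell were the progenitor factor Isl1, the sinus node factor Shox2 (−1.33 ± 0.22), the membrane proteins Popdc2 (−1.30 ± 0.18) and Bves (−1.29 ± 0.16), and the calcium channel Cacna1d (−1.20 ± 0.31), which was not called without day 9 replicate 2 (−0.95). The pacing channel Hcn4 was not called (−0.44). In the hormone and receptor list the muscarinic receptor Chrm2 was at least 1.67-fold higher, and 1 other member fell. The natriuretic peptides Nppa (0.97 ± 0.50) and Nppb (−0.95 ± 0.41) were not called and leaned in opposite directions. Nppa stood at −2.42, 0.18, −0.81 and −1.67 on day 9 and at −0.40, −0.21, −0.31 and 0.10 on day 14, so day 14 lies inside the range of day 9; without day 9 replicate 2 it was called at 1.42. Nppb was called without day 9 replicate 1 (−1.21).

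None of 28 tested cardiac transcription factors rose and 4 fell. Hand1, a factor of the first heart field and extraembryonic mesoderm, fell by 2.81 on the log2 scale (adjusted p = 5.44e-06), from 2.92, 2.24, 2.43 and 3.05 to −0.17, −0.26, −0.15 and −0.02. Isl1, which marks progenitors of the second heart field, fell by 1.85, from −0.23 to 0.94 down to −1.89 to −1.15. Nkx2-5, the early regulator of the heart muscle fate, fell by 1.18 ± 0.35 (adjusted p = 0.0178), and was not called without day 9 replicate 2 (−0.94). Shox2 is the other of the 4. The median of the list was −0.44, with Gata4 at −0.79, Tbx5 at −0.86 and Mef2c at −0.15, none called.

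In the list of muscle energy isoforms 10 of 31 rose and 2 fell. The fatty acid transporter Cd36 rose by 4.05 ± 0.14, Cox8b by 3.50 ± 0.28, myoglobin (Mb), the oxygen store of heart and red muscle, by 2.55 ± 0.30, myospryn (Cmya5) by 2.04 ± 0.34 and muscle creatine kinase (Ckm) by 1.62 ± 0.20. Mb stood at −0.37, 0.99, 0.72 and 0.22 on day 9 and at 2.56, 3.13, 2.73 and 3.32 on day 14. The other 5 were lipoprotein lipase (Lpl, 1.54 ± 0.12), Cox6a2 (1.39 ± 0.32), the pyruvate dehydrogenase kinase Pdk4 (1.25 ± 0.25), the lipid-sensing receptor Ppara (1.20 ± 0.08) and the coactivator Ppargc1b (1.03 ± 0.15). The calls of Cox6a2 (0.89), Pdk4 (0.81) and Ppargc1b (0.77) were lost without day 9 replicates 1 and 4 together, and that of Ppargc1b also without replicate 1 (0.92) or 4 (0.98) alone. The orphan receptors Esrrb and Esrrg fell by 1.76 and 1.44 on the log2 scale, and another probe of Esrrg moved by 0.07. Cd36 and Lpl also belong to fat cells, endothelium and macrophages; Fabp4, a fatty acid carrier of those cells, rose by 6.43 ± 0.06, with 4.00 the lowest among its other probes. The general machinery did not follow: of 34 oxidative phosphorylation genes none was called (median −0.07), and of 20 glycolysis genes 1 rose and 1 fell.

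Skeletal muscle genes rose beside these. Of 21 tested members 9 rose and none fell, among them the myogenic factor Myog, at least 8.76-fold higher, embryonic myosin Myh3 (3.38 ± 0.27), the acetylcholine receptor subunit Chrna1, at least 1.74-fold higher, and Tnnt1. Myog was below background on all day 9 arrays and stood at −2.94, −2.40, −2.65 and −2.49 on day 14. In mESC Myh3 (−0.64 to −0.51) and Chrna1 (−1.81 to −1.61) were higher than on either day, so neither marks skeletal muscle by itself in these samples. The mean of the list ran from −3.41 to −3.10 on day 9 and from −2.50 to −2.18 on day 14, against −3.41 to −3.29 in mESC. The determination factor Myod1 was above background on all 8 arrays and was not called at 0.68, and the myoblast fusion protein Mymk was not called at 0.27; both were named after their values were seen. Genes that skeletal muscle shares with heart, such as Ckm, Mb, Cox8b, Cox6a2, Xirp2, Myom2 and Trdn, can come from either, and the part of skeletal muscle in their rise was not tested.

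The mESC arrays give a level to set these changes against. Of the 30 heart genes that rose, 6 were already higher on every mESC array than on every day 9 array, among them Mybpc2, Myom2, Pdk4 and Xirp2, against 36.5% of all genes that rose. Of the 21 that fell, 18 were lower on every mESC array than on every day 9 array, against 64.1% of all genes that fell, so most heart genes that fell had been higher on day 9 than in mESC.

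With normexp background correction, which adds an offset of 50 to every signal and so shrinks differences between dim probes, 19 heart genes rose and 11 fell. Among the 11 calls lost upward were those of Kcna4 (0.92), Kcnd2 (0.91), Gja5 (0.94), Chrm2 (0.61), Ckm (0.58), Pdk4 (0.90), Ppara (0.75), Ppargc1b (0.84), Mybpc2 (0.94) and Xirp2 (0.71). Among the 10 lost downward were those of Nebl (−0.07), Synpo2 (−1.01), Pdlim5 (−0.62), Trim54 (−0.54), Trim55 (0.22), Cacna1d (−0.26), Shox2 (0.10), Esrrb (−0.38) and Esrrg (−0.56). Trim55 and Shox2 thereby changed sign, and their fall is not settled. In the skeletal muscle list 4 genes rose with normexp in place of 9, with Chrna1 (0.63) and Ckm (0.58) among those lost.

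The tested members of the macrophage list all moved the same way. All 32 rose, 12 of them from below background throughout day 9, with a median of 4.80. Those 12 were tested only because they were above background on day 14, so they could hardly have fallen. Another 3 listed genes were not tested. Trem2, a lipid-sensing receptor of tissue macrophages, was at least 414-fold higher: it stood at −6.26 to −5.77 on day 9 and at 2.98, 2.79, 3.12 and 2.87 on day 14. Adgre1, the antigen F4/80, was at least 199-fold higher, from −6.66 to −5.96 up to 1.69 to 2.05, and moved by 2.91 on another probe. The complement starter C1qc was at least 175-fold higher, the Fc receptor Fcgr1 at least 91.1-fold, and the lysosomal protease Ctss rose by 7.90 ± 0.30. The mean of the list was −5.16 to −4.75 on day 9, close to −4.92 to −4.84 in mESC, and −0.12 to 0.15 on day 14, so the day 9 arrays lay near the stem cell level and every day 14 array far above it. Immune lists rose beside it. Of 19 complement genes 16 rose and none fell, with C3, the central complement protein, at 5.48 ± 0.15 and Cfi at 5.26 ± 0.13. Liver makes both of these as plasma proteins, and the share of liver and macrophages in them was not tested. Of 19 chemokine and receptor genes 15 rose, with Ccl9 at 5.60 ± 0.27. In the lysosome list 6 of 25 rose, led by Ctss, Gpnmb (7.42 ± 0.22) and Ctsk (4.88 ± 0.08), and 1 fell. In the lymphocyte list 2 of 7 rose, Il7r and Cd79b, and 11 other members were not tested.

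Genes of liver and endoderm moved both ways. Of 38 tested visceral endoderm and liver genes 20 rose and 5 fell. Fetuin A (Ahsg), a plasma protein of fetal liver, rose by 9.85 ± 0.11, from −5.03 to −4.51 up to 4.97, 5.07, 5.14 and 5.19, the steepest rise among the named genes above background on both days. Albumin (Alb) rose by 8.53 ± 0.14, from −3.12 to −2.43 up to 5.62 to 5.79, the liver fatty acid carrier Fabp1 by 5.98 ± 0.11, and kininogen (Kng1) was at least 111-fold higher. Of the 20 that rose, 4 (Ahsg, F2, Kng1 and Trf) were higher on every mESC array than on every day 9 array. The share among all genes that rose was 36.5%. In mESC Ahsg stood at −0.24 to −0.11 and Kng1 at −4.45 to −4.29, between the 2 days. The genes that fell were the protease inhibitor Spink1 (−2.74 ± 0.23) and 4 that serve uptake and transport: apolipoprotein B (Apob, −2.26 ± 0.22), amnionless (Amn, −2.06 ± 0.13), its partner cubilin (Cubn, −2.03 ± 0.11) and retinol binding protein (Rbp4, −1.53 ± 0.10). The list does not separate liver from visceral endoderm. Apob stood at 0.51, 1.12, 1.36 and 0.41 on day 9 and at −1.54, −1.53, −1.11 and −1.45 on day 14. Of 19 genes of hepatocyte maturation 8 rose, with the urea cycle enzyme Cps1 at least 8.11-fold higher, and 2 fell, Tdo2 (at least 7.65-fold lower) and Bhmt (−1.77 ± 0.26); with normexp both falls were lost (−0.55 and −0.24). Gut and lung endoderm fell in 6 of 19 cases and rose in 1: the intestinal factor Cdx2 fell by 2.00 on the log2 scale and the lectin Lgals4 rose by 2.67 ± 0.06.

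Connective tissue genes rose. Of 34 tested fibroblast and interstitial matrix genes 18 rose and 2 fell, with a median of 1.20. Dermatopontin (Dpt), a collagen-binding matrix protein, was at least 23.1-fold higher, from below background to −1.39 to −0.86, and the surface protease Fap rose by 6.24 ± 0.61. The small proteoglycans Ogn and Dcn rose by 5.53 ± 0.37 and 3.68 ± 0.34, and the collagen VI chain Col6a2 by 3.78 ± 0.06. Periostin (Postn), a matrix protein of cushion mesenchyme, fell by 1.12 on the log2 scale, from 6.26, 4.90, 5.49 and 6.11 to 4.54 to 4.62, and was not called without day 9 replicate 1 (−0.93) or 4 (−0.98). Twist2 fell by 1.20, and by 0.93 without both of those arrays, where it was not called. In the elastic fibre list 9 of 20 rose, with no falls: elastin (Eln) by 3.16 ± 0.06, from −1.86 to −1.72 up to 1.28 to 1.46, the latent TGF-beta binding protein Ltbp2 by 4.92 ± 0.11 and the crosslinking enzyme Lox by 4.45 ± 0.32. The labels put all samples on an elastin-like coating, so its part in these values was not tested.

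Epicardium and mesothelium rose in 9 of 16 cases and fell in 1. Mesothelin (Msln) rose by 6.22 ± 0.14, from −4.62 to −3.93 up to 1.83 to 1.94, a level that mESC exceeded (2.22 to 2.36). The guidance cue Sema3d rose by 3.89 ± 0.13 and the retinoic acid enzyme Aldh1a2 by 2.45 ± 0.12, and keratin 8 (Krt8) fell by 1.31 on the log2 scale. Retinoic acid genes rose in 6 of 17 cases and 1 fell, led by the dehydrogenase Aldh1a1 at 5.65 ± 0.08. Smooth muscle split by gene: 7 of 23 rose, with the channel Kcnj8 at 5.18 ± 0.09 and myosin light chain kinase (Mylk) at 4.99 ± 0.06, and 2 fell, Synpo2 and the channel subunit Kcnmb1 (−1.98 ± 0.40, but 0.14 with normexp). Smooth muscle actin (Acta2) was not called at −0.95.

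**Figure D5:**
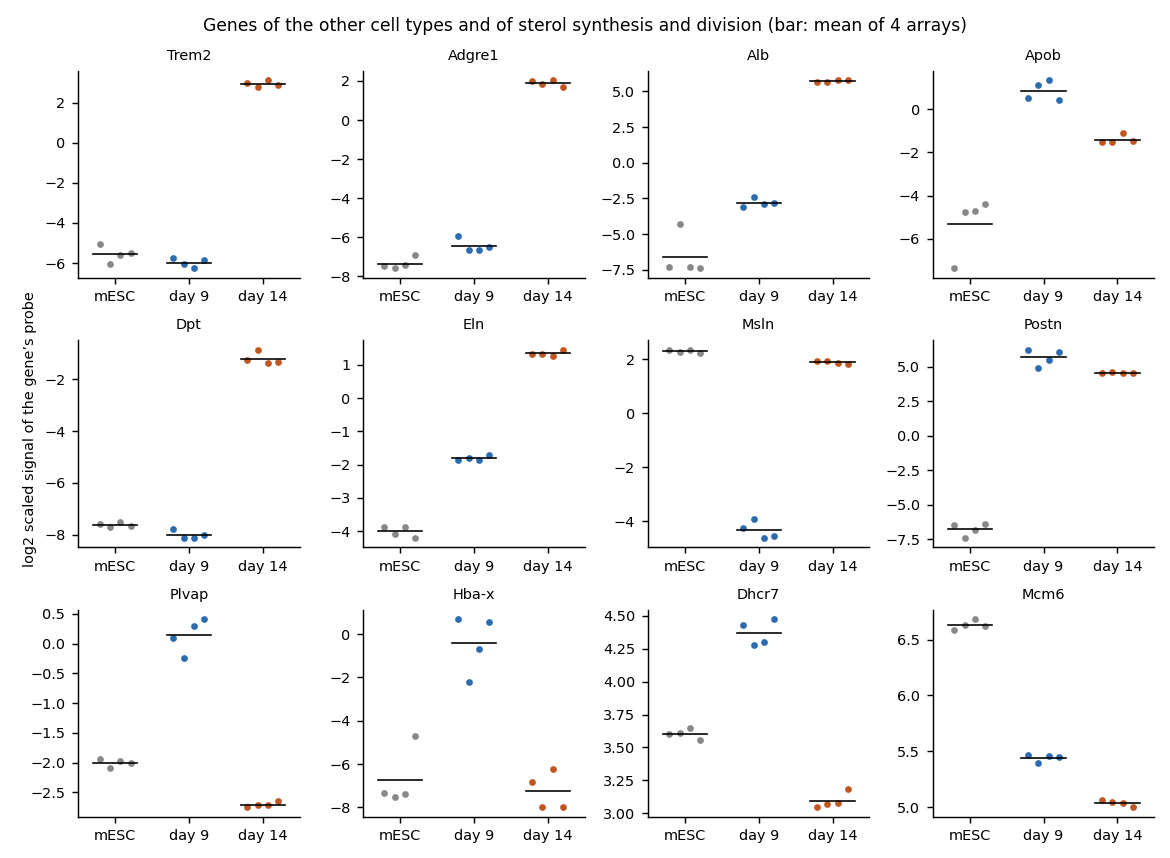
Log2 scaled signal of 12 genes of macrophages (Trem2, Adgre1), liver and visceral endoderm (Alb, Apob), fibroblasts and elastic fibre (Dpt, Eln, Postn), mesothelium (Msln), endothelium (Plvap), embryonic red cells (Hba-x), sterol synthesis (Dhcr7) and DNA replication (Mcm6) on each of the 12 arrays (points; black bars are means of 4 arrays), each panel on its own axis. Alb rises from about −3 to above 5 while Apob falls below −1, and Hba-x returns to the mESC level on day 14.

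Endothelial and primitive blood genes fell more often than they rose. Of 28 tested endothelial genes 10 fell and 4 rose, with a median of −0.50. The fenestral protein Plvap fell by 2.85 on the log2 scale, from 0.10, −0.24, 0.30 and 0.41 to −2.75, −2.70, −2.71 and −2.65, followed by the apelin receptor Aplnr (−1.97 ± 0.25), the receptor Tie1 (−1.96 ± 0.13) and endomucin (Emcn, −1.81 ± 0.09). The 4 that rose were Lyve1 (2.58 ± 0.52), which macrophages share, Mmrn1 (2.11 ± 0.41), Dll4 (1.51 ± 0.16) and Apln (1.05 ± 0.17). The rise of Apln was lost without day 9 replicate 4 (0.87). With normexp the calls of Aplnr (−1.05), Tie1 (−0.49), Lyve1 (0.92), Mmrn1 (0.76), Dll4 (0.68) and Apln (0.79) were lost. Of 16 blood progenitor and erythroid genes 7 fell and 1 rose. The embryonic globin Hbb-bh1 fell by 7.14 ± 0.63 on the log2 scale, from 2.26, −0.34, 1.10 and 2.17 to −4.96, −6.44, −5.38 and −6.60, and Hba-x was at least 44.8-fold lower. Day 9 replicates 1 and 4, which were low in heart genes, were the highest for both globins. The definitive blood factor Runx1, also of macrophages, rose by 2.23 ± 0.13, or by 0.44 on another probe. With normexp Hba-x (−2.07) was not called.

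Pluripotency genes fell more often than they rose. Of 25 tested network genes 8 fell and 2 rose. Pou5f1 fell by 2.04 on the log2 scale, from −0.18, −1.16, −0.28 and −1.15 to −2.81 to −2.66, where mESC stood at 4.93 to 5.24. Lin28a, which blocks the let-7 microRNAs, fell by 3.34, and Dppa3 by 2.71. On day 9 Lin28a (−1.68 to −0.72) had not yet dropped below its mESC level (−1.70 to −1.61). Sall4 fell by 2.69, a value that came from a probe replaced by another one, at −0.09, when day 9 replicate 2 was left out. With normexp Pou5f1 (−1.08) and Lin28a (−1.23) were not called. Among the steepest falls over all genes were also Etv2 (−4.05 ± 0.22), the factor that starts blood and endothelium, the gut hormone Pyy (−4.09 ± 0.23) and Wnt2 (−3.34 ± 0.07), a ligand of early heart mesoderm, which stood at 3.25 to 3.42 on day 9 and at −0.14 to 0.08 on day 14; with normexp Etv2 (−1.28) was not called.

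Sterol synthesis fell as a block. Of 21 genes 14 fell and none rose, with a median of −1.07 and small spreads: Dhcr7, which makes cholesterol from its last precursor, fell by 1.28 on the log2 scale, from 4.43, 4.28, 4.30 and 4.47 to 3.04, 3.07, 3.08 and 3.18. The fatty acid elongase Elovl6 fell by 1.31 and Idi1, an enzyme of the isoprenoid steps, by 1.22. Of 31 cell cycle genes none was called, with a median of −0.38, the replication helicase Mcm6 at −0.40 ± 0.04 and the mitotic protein Birc5 at −0.25 ± 0.09, while 5 of 16 cell cycle inhibitors rose, among them Gadd45b (2.12 ± 0.18), Cdkn2b (1.93 ± 0.08) and Cdkn2c (1.72 ± 0.09). Mcm6 was lower on every day 14 array (5.00 to 5.06) than on every day 9 array (5.39 to 5.46), with an adjusted p of 8.8e-05 in limma, so it missed only the fold threshold. Of 17 hypoxia genes 6 rose, with no falls, and had carbonic anhydrase 9 (Car9) at 2.05 ± 0.07 and the oxygen sensor Egln3 at 2.08 ± 0.15.

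Smaller groups of other tissues rose on day 14. Neuronal genes rose in 14 of 22 cases and 1 fell, with the axonal protein tau (Mapt) at 2.70 ± 0.19; epidermal genes rose in 6 of 20 and 2 fell, with keratin 14 (Krt14) at 4.27 ± 0.13 and keratin 17 (Krt17) at 3.77 ± 0.07. In the cartilage and bone list 6 of 18 rose and 1 fell. Its leader, osteopontin (Spp1), rose by 6.96 ± 0.21, from −2.17 to −1.11 up to 5.35 to 5.52; macrophages also make it, and mESC stood at 6.96 to 7.10. Wnt pathway genes rose in 8 of 27 cases and 6 fell, with Sfrp2, an antagonist of mesenchyme, at 3.82 ± 0.12 and the antagonist Dkk1 at −2.79 ± 0.15. The interferon list held 9 risers among 20 and no falls, with Ifi44 at 2.90 ± 0.42 and Oasl2 at 2.34 ± 0.13; with normexp Ifi44 (0.97) was not called.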

How the data were processed

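Total RNA of 12 samples was measured on 1-colour Agilent arrays. Per the file headers and the submitters' processing notes, the authors extracted each array with Agilent Feature Extraction 12; the deposited processed signal is an intensity, background-subtracted and not scaled between arrays, and the deposited median and background signals are intensities without correction. The other deposited columns, per the file headers, are flags for outlier spots and spots well above background. The array's annotation refers to another build than GRCm38.p6, so no probe positions are given.

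Of 45018 spots on each array, 43379 were not controls. Outlier spots were dropped and 0 spots were saturated. After log2 and scaling to the 75th percentile, replicate spots were averaged by probe. Of 41174 probes, 28223 were named through RefSeq accessions, and 15086 of the 20134 genes tested have a symbol. A probe was tested if well above background on at least 3 of 4 arrays of a day; the brightest tested probe stood for a gene. limma 3.58.1 in R 4.3.3 was fitted to the 8 arrays, two-sided, with Benjamini-Hochberg adjustment. On simulated data for this comparison (20134 genes) it recovered 92% of changes of 1.5 and 99% of changes of 2.5 (log2), with 1 false call. The simulated noise was independent between genes, with the same SD on both days, and every probe counted as above background. The real arrays differ in each of these respects, so the figures need not hold for them. The number of arrays limits precision.

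The text draws on genes taken by a rule: the 10 largest changes in each direction with a symbol, all isoform pairs and heart genes, up to 5 called genes of each other list in each direction, and the 5 largest bounds; 380 genes, of which 243 were called, with adjusted p up to 0.0311. Some of these genes are not reported here by name, but they are in the counts. Of 61 of these with other tested probes, 3 had a probe of the opposite sign and 5 one more than 2 away. The comparison, the 47 lists and the pairs were chosen with earlier results of these data known. Samples sharing a number were not paired: their deviations correlated at 0.20, 0.04, 0.03 and −0.06. Alternatives were other background correction (normexp, offset 50), scaling, filters, probe rules, variance models, all 12 arrays, the series table, a replicate block and leaving out arrays. In the deposited series table each intensity equalled the one in its array file.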

Additional observations from a re-analysis of the deposited data

Results flagged for a closer look

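The highest or lowest array of a day lay far from the other 3, relative to the range of the 4 values, in 8 of the 292 groups examined (list means, isoform ratios and genes whose arrays are given). Chance puts about 1 in 20 past this limit, or 14.6 groups, which is more than the 8 found. Some of the gaps are small on the log2 scale. On day 9 the mean of the hepatocyte maturation list was −3.76 on replicate 2 against −4.13 to −4.11 on the others, that of the oxidative phosphorylation list was 4.52 on replicate 1 against 4.64 to 4.66, Mybpc2 was −7.45 on replicate 1 against −7.78 to −7.73, all below background, Aldh1a1 was −2.87 on replicate 3 against −2.64 to −2.59, and Tie1 was −2.58 on replicate 2 against −2.10 to −2.01. On day 14 the mean of the glycolysis list was 4.40 on replicate 4 against 4.37 on each of the others, the centred ratio of Myh6 to Myh7 was 0.68 on replicate 2 against 0.52 to 0.54, and Chrm2 was −5.18 on replicate 1 against −4.97 to −4.93.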

How the results depend on the processing

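Normexp background correction gave 1196 calls (953 higher and 243 lower) in place of 2800, of which 1167 were shared, with 19 heart genes higher, 11 lower and 25 genes of other cell types lower; probes above background on all 8 arrays gave 1837 calls, 1267 of them higher, among 17674 genes. Median scaling gave 1170 lower calls. Without day 9 replicates 1 and 4 together, an alternative chosen after seeing the data, 37 heart genes were lower. With normexp 5 named genes that fell changed sign: Kcnmb1 (0.14), Matn3 (0.15), Shox2 (0.10), Slc4a1 (0.055) and Trim55 (0.22); the cause was not tested. Leaving out 1 array at a time gave 2716 to 2827 calls. A replicate block gave 2797 calls; the numbers do not pair the samples.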
